A study of Mus musculus with 39 samples.

Results

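The 6 peak lists described here record where histone H3 trimethylated at lysine 9 (H3K9me3) was called in DP and Oct4 cells of mouse naive extra-embryonic endoderm (nEnd) cultures, 3 lists per population. They were taken by their labels, mark H3K9me3 and population DP or Oct4, from the 39 samples of the series, of which 36 had a peak list. All cells came from the OCT4-mCherry reporter line and had no treatment, so the data concern 1 reporter line. The cultures were kept in a defined medium with Activin A, CHIR99021 and LIF (RACL) on mouse embryonic fibroblast (MEF) feeders and were sorted on OCT4-mCherry and on PDGFRA stained with an APC-coupled antibody. DP cells were positive for both, and Oct4 cells for OCT4-mCherry alone. CUT&Tag, in which an antibody tethers the Tn5 transposase to the chromatin that carries a mark, was run on each sorted sample, and the peaks of each library were called against an IgG control.

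H3K9me3 is laid down by SETDB1, SUV39H1 and SUV39H2 and is read by HP1 proteins, which compact the chromatin. In early embryonic cells SETDB1 is brought to endogenous retroviruses by TRIM28 and KRAB zinc finger proteins, and the mark also covers satellite repeats, the clustered KRAB zinc finger genes themselves, clustered receptor genes and a single allele of imprinted control regions. The study counts DP cells to the endodermal part of nEnd cultures. It describes them as like early primitive endoderm, with modest levels of some pluripotency genes. Oct4 cells are the epiblast-like cells that arise in these cultures.

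The sorted identities were checked on the lists of other marks from the same populations, by peaks within 20 kb of a marker's start. H3K27ac, a mark of active elements, had a peak near Nanog, the pluripotency factor, in 0 of 3 DP lists and 3 of 3 Oct4 lists, and near Pdgfra, the sorted receptor, in 2 DP lists and 0 Oct4 lists. H3K4me1, a mark of primed and active enhancers, had a peak near Pdgfra in 3 DP lists and 0 Oct4 lists, and near Pou5f1, which encodes OCT4, in 3 of 3 lists of each. Other markers separated the populations less or went the other way. Near Gata6 and Sox17, endoderm factors, H3K27ac had a peak in 3 and 2 DP lists and in 2 and 2 Oct4 lists, and near Pecam1, an adhesion gene of epiblast cells, H3K27ac had a peak in 0 DP and 2 Oct4 lists while H3K4me1 had one in 3 DP and 0 Oct4 lists. Of 8 fibroblast markers, none had an H3K27ac peak in a DP list, while Col1a1, a collagen gene, had one in 2 Oct4 lists, and Thy1 and Twist1 in 1 each. The H3K27ac lists held 10957, 3079 and 12244 peaks in DP and 38619, 65131 and 8574 in Oct4. The part of list length in these counts, and of feeder cells in the H3K9me3 lists, was not tested.

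Before any counts, a few stretches of sequence are shown as examples. They were picked by signal rank or for a motif, so they do not measure how the lists differ. A region is an interval formed by joining touching peaks of the 6 lists. A region or gene is called DP-only if it held a peak in all 3 DP lists and in no Oct4 list, Oct4-only in the reverse case and constant if it held a peak in all 6. Each stretch is 300 bases of the GRCm38 reference, plus strand, centred where a named library had its highest signal.

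The DP-only region with the highest rank of total signal lay on chr2:98661958-98665435, between genes, 2.15 kb from the start of the predicted gene Gm10800. Its total signal, the read coverage summed over the bases of a peak, was 181436, 191245 and 167595 in DP replicates 1 to 3, and no Oct4 list had a peak nearer than 46.1 kb on its left or 151 kb on its right. The window of DP replicate 1 is shown because it is a tandem repeat of minor satellite type, the repeat of mouse centromeres, lying far from the centromere. The capitals mark the CENP-B box (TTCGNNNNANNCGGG on either strand), the binding sequence of the centromere protein CENP-B, found in 0.0063% of 300-base windows of the genome. Repeats that the assembly collapses gather reads from many copies, and this segment is known for very high coverage in many data sets. Its presence in DP lists and absence from Oct4 lists also depends on the IgG control of each library, whose part was not tested.
DP-only region, chr2:98664999-98665298: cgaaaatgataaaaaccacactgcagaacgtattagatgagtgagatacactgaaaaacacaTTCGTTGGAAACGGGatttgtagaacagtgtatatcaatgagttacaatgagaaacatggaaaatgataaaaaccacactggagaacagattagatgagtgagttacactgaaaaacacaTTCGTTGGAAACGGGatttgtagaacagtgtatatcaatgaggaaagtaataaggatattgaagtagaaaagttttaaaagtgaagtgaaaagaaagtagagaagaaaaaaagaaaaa

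The DP-only region next in rank, chr7:30148644-30163988, covered 15345 bases of a zinc finger gene cluster, and its window in DP replicate 1 lay in an exon of Gm10988. Total signal was 71755, 92159 and 59192 in the DP lists. The window is shown with 3 windows from coding exons of DP-only genes because all 4 hold the stretch that joins adjacent zinc fingers, here called the zinc finger linker, searched as the codons for the amino acids TGEKP on either strand. The 3 gene windows were picked for holding it, so its presence in them is no result. The capitals mark that match, which 0.0527% of 300-base windows of the genome held. Zfp599 and Zfp68 lie on the minus strand, so their linkers read as the reverse complement, and the Zfp68 window also overlaps the small RNA gene Gm24082.
DP-only region, chr7:30152690-30152989: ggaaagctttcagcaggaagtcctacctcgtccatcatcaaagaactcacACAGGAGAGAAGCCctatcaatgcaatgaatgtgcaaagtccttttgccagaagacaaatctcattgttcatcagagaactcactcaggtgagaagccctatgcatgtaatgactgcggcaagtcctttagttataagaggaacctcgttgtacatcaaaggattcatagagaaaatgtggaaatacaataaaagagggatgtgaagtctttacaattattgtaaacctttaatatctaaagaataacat
Zfp599, chr9:22249960-22250259: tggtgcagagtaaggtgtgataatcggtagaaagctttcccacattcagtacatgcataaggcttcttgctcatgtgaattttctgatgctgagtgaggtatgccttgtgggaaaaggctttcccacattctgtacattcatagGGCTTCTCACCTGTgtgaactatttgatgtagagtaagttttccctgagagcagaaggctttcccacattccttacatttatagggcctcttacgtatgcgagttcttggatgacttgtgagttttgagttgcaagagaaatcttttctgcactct
Zfp68, chr5:138606625-138606924: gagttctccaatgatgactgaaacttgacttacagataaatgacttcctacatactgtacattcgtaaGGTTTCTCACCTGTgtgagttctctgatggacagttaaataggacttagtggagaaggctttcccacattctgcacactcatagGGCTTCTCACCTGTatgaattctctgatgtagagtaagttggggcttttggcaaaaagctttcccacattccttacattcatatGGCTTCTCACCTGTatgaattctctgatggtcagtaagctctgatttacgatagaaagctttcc
Zfp30, chr7:29792928-29793227: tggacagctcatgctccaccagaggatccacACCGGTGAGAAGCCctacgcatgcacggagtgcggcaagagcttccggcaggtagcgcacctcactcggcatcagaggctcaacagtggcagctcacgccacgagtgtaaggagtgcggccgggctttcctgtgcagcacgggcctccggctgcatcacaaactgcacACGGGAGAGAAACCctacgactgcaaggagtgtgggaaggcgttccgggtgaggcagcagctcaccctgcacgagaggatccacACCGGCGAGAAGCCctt

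The windows of the Oct4-only regions of highest rank held no linker and no CENP-B box. The region chr9:123927477-123934447, 37.9 kb from the start of the chemokine receptor gene Ccr1, was the strongest peak of each Oct4 list, with a total signal of 336266, 303655 and 148188. The DP lists held peaks on both sides of it, 1.32 to 1.65 kb to the left and 0.929 to 0.95 kb to the right, and none over it. The Oct4 lists held such flanking peaks too, 1.42 to 1.65 kb to the left and 0.932 to 0.942 kb to the right. The part of each library's IgG control in the missing DP peak was not tested. The region chr7:26685142-26697951, 8.01 kb from the start of the cytochrome P450 gene Cyp2b23, had a total signal of 66329, 58508 and 25793 in the Oct4 lists. Their windows from Oct4 replicate 1 were taken by rank and not for a motif, unlike the zinc finger exons above. They were 43.7% and 56.7% repeat-masked.
Oct4-only region, chr9:123930692-123930991: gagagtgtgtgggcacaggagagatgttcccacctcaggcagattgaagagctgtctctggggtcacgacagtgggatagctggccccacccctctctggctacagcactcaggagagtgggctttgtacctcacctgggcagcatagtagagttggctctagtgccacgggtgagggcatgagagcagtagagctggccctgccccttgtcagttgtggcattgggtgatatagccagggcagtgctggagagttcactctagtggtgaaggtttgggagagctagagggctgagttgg
Oct4-only region, chr7:26694299-26694598: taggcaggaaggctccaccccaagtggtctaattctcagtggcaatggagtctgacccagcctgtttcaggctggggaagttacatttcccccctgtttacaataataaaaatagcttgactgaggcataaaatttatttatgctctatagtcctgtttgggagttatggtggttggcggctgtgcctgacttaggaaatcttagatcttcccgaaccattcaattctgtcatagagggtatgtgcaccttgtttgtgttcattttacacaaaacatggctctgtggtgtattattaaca

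The constant region of highest rank, chr16:3640443-3664219, spanned 23777 bases and lay 61.9 kb from the nearest gene start, that of the olfactory receptor gene Olfr161. Its total signal was 106594, 155794 and 128421 in the DP lists and 241939, 211307 and 116784 in the Oct4 lists. The window of Airn, the imprinted antisense RNA of the Igf2r locus, is shown because TGCCGC, the methylated core motif of the zinc finger protein ZFP57 at imprinted control regions, occurs in it 3 times (capitals, either strand), against 1.79% of genome windows that hold it at all. It comes from Oct4 replicate 1 and lies in an intron of Igf2r.
Constant region, chr16:3652774-3653073: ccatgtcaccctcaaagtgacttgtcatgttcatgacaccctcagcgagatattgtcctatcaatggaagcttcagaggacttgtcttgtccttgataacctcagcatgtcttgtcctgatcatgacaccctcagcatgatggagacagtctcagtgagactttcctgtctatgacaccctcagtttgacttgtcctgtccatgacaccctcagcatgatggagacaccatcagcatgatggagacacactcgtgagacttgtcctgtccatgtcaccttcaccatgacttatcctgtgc
Airn, chr17:12742164-12742463: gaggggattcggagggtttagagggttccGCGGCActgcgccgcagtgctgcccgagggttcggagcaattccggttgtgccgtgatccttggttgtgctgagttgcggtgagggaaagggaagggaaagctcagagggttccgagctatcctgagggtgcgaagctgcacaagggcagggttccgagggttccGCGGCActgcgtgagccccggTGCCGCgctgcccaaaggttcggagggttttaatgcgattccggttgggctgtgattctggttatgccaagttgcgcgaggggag

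The lists differed in length. The DP lists held 13676, 26981 and 12701 peaks, and the Oct4 lists 29871, 22912 and 14160. The lowest total signal listed was 6376, 6021 and 6596 in DP and 3752, 4609 and 4011 in Oct4, and since no read numbers come with the lists, the depth behind each value is unknown. Every comparison was therefore made with all peaks and again with the 12701 peaks of highest total signal in each list, called equal numbers below. A list can also miss a peak because the library was shallow, and a smaller share of cells with the mark cannot be told apart from less signal per cell.

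DP lists were more like each other than like Oct4 lists. The Jaccard index, the bases shared by a pair of lists divided by the bases in either, averaged 0.295 within DP (0.274 to 0.336), 0.383 within Oct4 (0.322 to 0.452) and 0.224 between the populations (0.173 to 0.241). With equal numbers the values were 0.327, 0.431 and 0.226. The within-population mean exceeded the between-population mean by 0.115, and by 0.153 with equal numbers, with p = 0.1 in the one-sided exact test over the 10 ways of dividing 6 lists into 3 and 3, the smallest value it can give. All 2-sided exact permutation tests below compare 3 lists with 3 and cannot go below p = 0.1, so no comparison can pass 0.05, and groups are described by whether their values overlap.

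Among 47348 merged regions, 968 were DP-only (2.04%), 2943 were Oct4-only (6.22%) and 4078 were constant. With equal numbers, 1396 of 28185 regions were DP-only (4.95%), 1960 were Oct4-only (6.95%) and 2867 were constant. The order of the counts turned at a common total signal of at least 6596, with 1683 DP-only and 1001 Oct4-only regions. That cut left 12754, 22510 and 12701 peaks in the DP lists and 14693, 14979 and 6334 in the Oct4 lists. Signal was not scaled to depth, and an Oct4-only call needs all 3 Oct4 lists, so the short list of Oct4 replicate 3 limits that count. The order thus depends on the cut, and neither population can be said to hold more regions of its own. DP-only regions lay in promoters (1 kb upstream to 100 bases downstream of a start) in 16.9% of cases, elsewhere in genes in 43.1% and between genes in 40.0%. Oct4-only regions were less genic, with 9.51% in promoters, 27.8% elsewhere in genes and 62.7% between genes. Of all regions, 9.28% were in promoters, 32.6% elsewhere in genes and 58.1% between genes. The median width was 3895 bases for DP-only, 3144 for Oct4-only and 5187.5 for constant regions.

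The same order held for the peaks of each list. Peaks in genes outside promoters made up 33.7%, 35.0% and 33.9% of the DP lists and 30.3%, 29.3% and 29.1% of the Oct4 lists. Peaks between genes made up 57.1%, 55.8% and 56.5% of the DP lists and 62.3%, 62.9% and 64.0% of the Oct4 lists. The populations did not overlap in either measure (2-sided exact permutation test p = 0.1, adjusted p = 0.1), and the same held with equal numbers.

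With all peaks, chromosome X had the widest difference of the 21 chromosomes. The DP lists held 111, 201 and 111 peaks on X, and the Oct4 lists 851, 610 and 268. Relative to the peaks expected from chromosome length, taken as 1, X had a density of 0.131, 0.121 and 0.142 in DP and 0.461, 0.431 and 0.306 in Oct4, so X was sparse in peaks in every list and denser in each Oct4 list than in any DP list. With equal numbers the peaks on X were 98, 59 and 111 in DP and 242, 236 and 215 in Oct4. Of 948 protein-coding genes on X, 11, 22 and 9 held a peak in DP and 47, 41 and 18 in Oct4, with 1 DP-only and 6 Oct4-only. These 6 were 0.633% of the genes on X, below the 1.41% of all protein-coding genes that were Oct4-only, and with equal numbers 0 were DP-only and 2 Oct4-only. Peaks on X were 54.0%, 53.9% and 56.5% repeat-masked in DP and 61.8%, 62.2% and 65.7% in Oct4. The labels give no sex for the line, and reads from the IgG controls on X were not analysed here.

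Of 21 chromosomes, 5 were denser in every DP list than in any Oct4 list (23.8%) and 7 were denser in every Oct4 list (33.3%). With equal numbers the counts were 4 (19%) and 8 (38.1%). Chromosomes 2, 5, 8 and 12 were denser in DP with both numbers of peaks, and chromosomes 1, 4, 13, 14, 19, X and Y in Oct4. Chromosome 5 had densities of 1.40, 1.33 and 1.38 in DP and 1.17, 1.19 and 1.20 in Oct4. Chromosome Y held 8, 15 and 7 peaks in DP and 44, 32 and 13 in Oct4. Each of these differences had an exact p of 0.1 and an adjusted p of 0.175. With X and Y left out of the peaks and of the length, chromosomes 2, 5, 8 and 12 were still denser in DP without overlap.

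**Figure D1:**
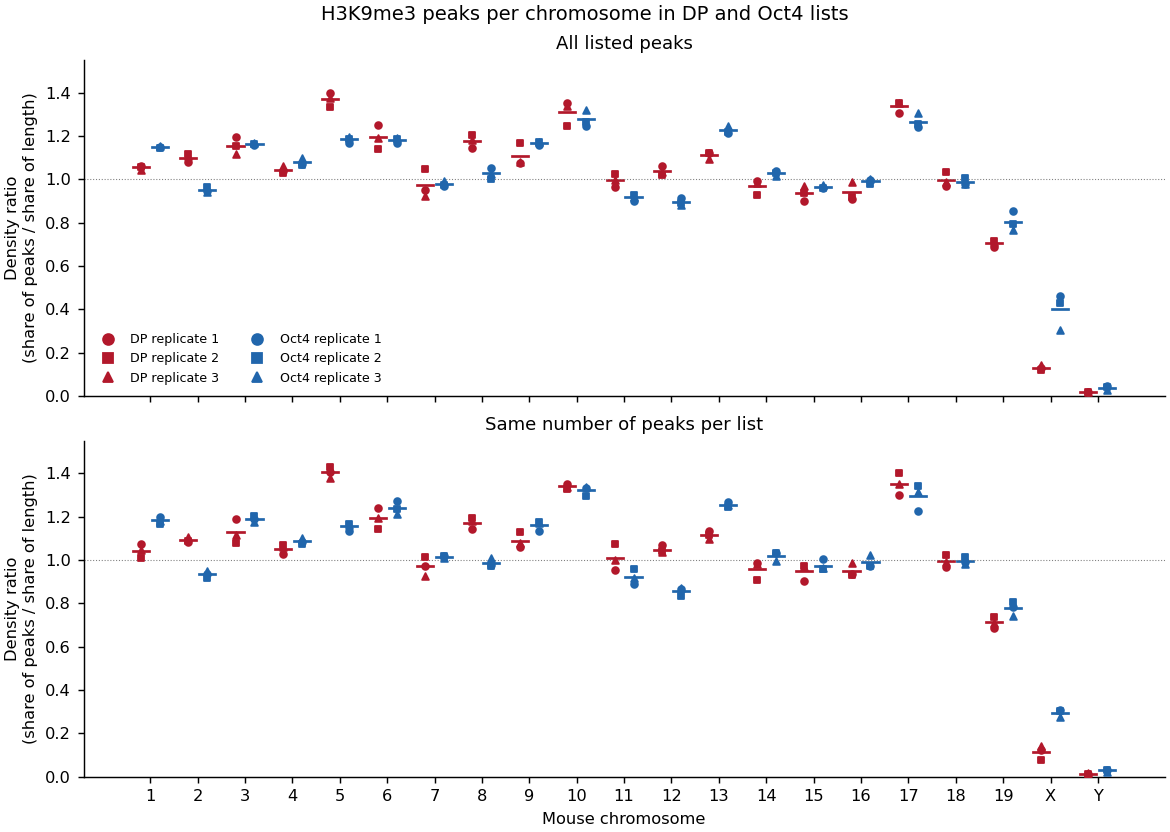
Peak density of each chromosome (vertical axis, share of a list's peaks divided by the chromosome's share of genome length, no unit) in each DP and Oct4 list, with all peaks and with equal numbers; points are libraries, bars the means of 3 and the dotted line a density of 1. On X the 3 DP lists lie between 0.121 and 0.142 and the 3 Oct4 lists between 0.306 and 0.461 with all peaks.

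The sequence under the peaks differed too. Repeat-masked bases made up 38.6%, 35.1% and 38.6% of the peak bases in DP and 44.9%, 46.2% and 47.9% in Oct4, against 36.4% of the genome. The lists did not overlap with all peaks, with equal numbers or on the autosomes alone, where DP had 38.5%, 35.0% and 38.4% and Oct4 44.4%, 45.8% and 47.6% (exact p = 0.1). GC content was 44.4%, 44.3% and 44.6% in DP and 43.6%, 43.6% and 44.1% in Oct4, against 41.7% of the genome. The files hold no repeat classes, so the masked bases are not divided into retrovirus, LINE and satellite sequence here.

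Zinc finger linkers went the other way. The share of peaks with a linker in the 300 bases around the maximum was 0.424%, 0.274% and 0.575% in DP and 0.0904%, 0.0742% and 0.0494% in Oct4, against 0.0527% of genome windows. These were 58, 74 and 73 peaks in DP and 27, 17 and 7 in Oct4, of which 36, 44 and 43, and 10, 6 and 3, lay in genes named Zfp. The core motif TGCCGC was in 3.81%, 3.27% and 3.65% of DP windows and 4.60%, 4.73% and 5.38% of Oct4 windows. The CENP-B box was at 4, 5 and 6 maxima in DP and 9, 5 and 3 in Oct4, and the populations overlapped, unlike at the satellite segment on chromosome 2.

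The contrast was sharper within the classes of regions. In DP-only regions the DP peaks were 28.5%, 27.9% and 28.3% repeat-masked, less than the genome, and 2.51%, 2.46% and 2.82% of them held a linker. In Oct4-only regions the Oct4 peaks were 47.6%, 47.5% and 48.8% repeat-masked, and 0.0653%, 0.0659% and 0.0331% held a linker. Constant regions lay between, with 42.2%, 40.6% and 41.9% masked in the DP lists and 44.9%, 44.8% and 45.7% in the Oct4 lists.

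**Figure D2:**
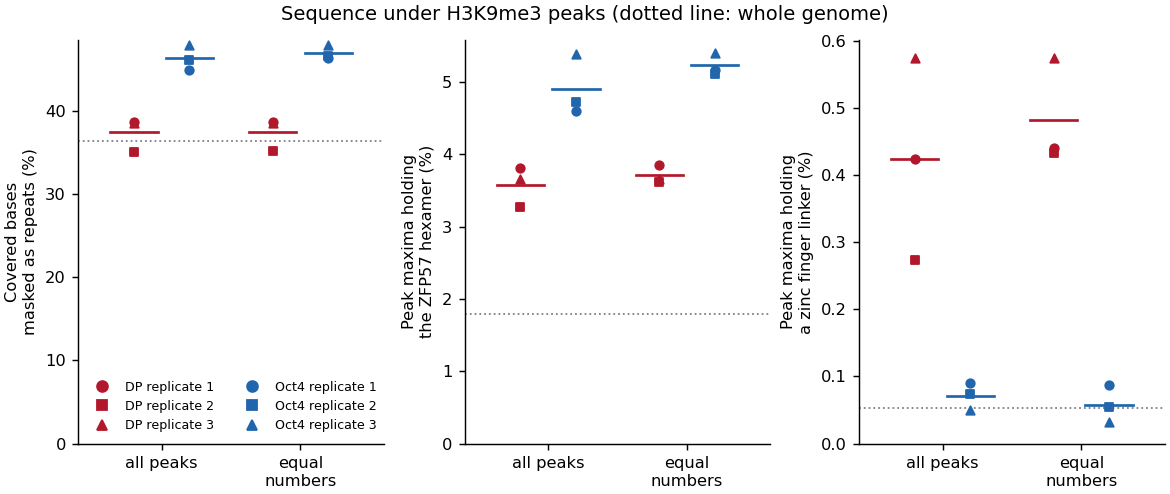
Sequence measures of the peaks of each list (vertical axes in percent, points are libraries, bars the means of 3, dotted line the whole genome) for all peaks and equal numbers. Oct4 peaks lie at 44.9% to 47.9% repeat-masked bases and DP peaks at 35.1% to 38.6%, while the share of maxima with a zinc finger linker is higher in each DP list.

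Zinc finger genes named Zfp, most of them DNA-binding repressors, were marked more often in DP. A gene counted as marked if a peak overlapped its body or the 1 kb upstream. Of 394 Zfp genes, 113, 160 and 116 were marked in the DP lists (28.7%, 40.6% and 29.4%) and 96, 78 and 56 in the Oct4 lists (24.4%, 19.8% and 14.2%). With equal numbers the shares were 28.2%, 31.5% and 29.4% in DP and 13.2%, 15.5% and 12.9% in Oct4. Over all 21911 protein-coding genes the all-peak shares were 11.92%, 19.45% and 11.71% in DP and 18.93%, 15.94% and 11.02% in Oct4, which overlapped. With equal numbers they were 11.3%, 12.2% and 11.7% in DP and 10.2% in each Oct4 list. In that setting the lists thus marked similar numbers of genes, while the Zfp share of DP was above that of Oct4.

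By pattern, 193 protein-coding genes were DP-only (0.881%), 309 were Oct4-only (1.41%) and 1208 were constant (5.51%). Of the 394 Zfp genes, 29 were DP-only (7.36%), 3 were Oct4-only and 37 were constant. With equal numbers, 376 genes were DP-only (1.72%), 256 were Oct4-only (1.17%) and 885 were constant (4.04%), and of the Zfp genes 43 were DP-only (10.9%), 3 Oct4-only and 27 constant. Between the 2 settings 158 genes kept the DP-only call, 28 of them Zfp genes, 169 kept the Oct4-only call, 885 stayed constant, and 0 switched population. Neighbouring genes can share a peak, so in distinct regions, Zfp genes held 44 of the 444 DP-only regions that overlapped protein-coding genes, and 10 of the 778 Oct4-only regions. They held 332 of all 14356 regions that overlapped protein-coding genes, and 46 of the 1251 constant ones. Zinc finger and receptor genes have near-identical copies, and how reads shared by such copies were placed is unknown, which leaves calls on single members uncertain.

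In DP, most marked Zfp genes held a peak at their end, where the exon that encodes the fingers usually is, and in Oct4 most did not. The last 3 kb held a peak in 83, 118 and 82 Zfp genes in DP (21.1%, 29.9% and 20.8%) and in 36, 28 and 19 in Oct4 (9.14%, 7.11% and 4.82%). With equal numbers the shares were 20.3%, 22.3% and 20.8% in DP and 4.57%, 5.08% and 4.57% in Oct4 (exact p = 0.1 in both). The start held a peak in 4, 11 and 6 Zfp genes in DP and 13, 11 and 7 in Oct4, which overlapped (exact p = 0.3). Start and end shares are compared between populations here and not with each other. Over all protein-coding genes the last 3 kb held a peak in 2.62%, 4.78% and 2.54% in DP and 3.51%, 2.80% and 1.69% in Oct4, and with equal numbers, without overlap, in 2.47%, 2.99% and 2.54% in DP and 1.90%, 1.80% and 1.61% in Oct4 (exact p = 0.1).

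**Figure D3:**
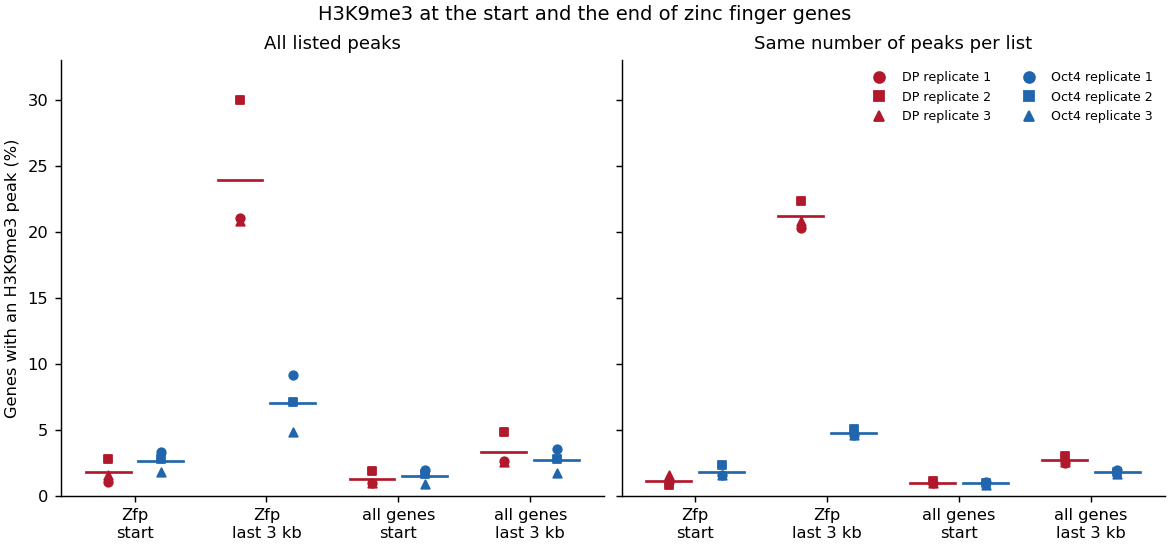
Share of 394 Zfp genes and of all protein-coding genes (vertical axis, percent) with an H3K9me3 peak at the gene start or in the last 3 kb, per list, with all peaks and with equal numbers; points are libraries and bars the means of 3. At the last 3 kb of Zfp genes the DP lists lie at 20.8% to 29.9% and the Oct4 lists at 4.82% to 9.14% with all peaks, and at the start they overlap.

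Gene clusters were defined as at least 5 genes of a family with neighbours at most 500 kb apart, and the share of a cluster's bases under peaks was compared. Of 142 clusters, 10 had more cover in every DP list (7.04%) and 19 in every Oct4 list (13.4%). With equal numbers the counts were 22 (15.5%) and 34 (23.9%), and all 10 and all 19 were among them. Each had an exact p of 0.1, with an adjusted p of 0.490 with all peaks and 0.254 with equal numbers. All 17 Zfp clusters had a higher mean cover in DP with both numbers of peaks, without overlap in 6 with all peaks and 10 with equal numbers. The 10 clusters of vomeronasal type 1 receptors (Vmn1r), which detect pheromones, all had a higher mean in Oct4, without overlap in 2 with all peaks and 3 with equal numbers. Of all 142 clusters, 86 (60.6%) had a higher mean in Oct4, and of those other than Zfp 68.8%, which is near the 23 of 33 (69.7%) olfactory receptor (Olfr) clusters.

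The widest DP difference was at the 5 genes from Zfp653 to Zfp810 on chr9:22055411-22307648, which hold Zfp599. Peaks covered 13.6%, 23.5% and 17.5% of it in DP and 8.64%, 6.94% and 4.27% in Oct4. The 15 genes from Zfp84 to Zfp146 on chr7:29768552-30169750, which hold Zfp30 and the region in Gm10988 shown above, were covered to 15.4%, 22.9% and 14% in DP and 7.73%, 7.77% and 5.44% in Oct4. The 6 genes from Zfp628 to Zfp580 on chr7:4915217-5053723 had 7.25%, 9.40% and 6.05% in DP, and 2.5%, 0% and 0% in Oct4. In each of these the lowest DP list was above the highest Oct4 list. The cluster from Zfp354c to Zfp354a on chr11:50811086-51072799 had 3.55%, 8.94% and 7.30% in DP and 2.30%, 1.16% and 0% in Oct4. The 18 genes from Zfp990 to Zfp933 on chr4:145510759-147848366 had 12.4%, 15.2% and 11.6% in DP and 9.84%, 8.67% and 4.33% in Oct4, a smaller relative gap.

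The 5 named clusters with more cover in Oct4 were of the Cyp2, Clec4, Vmn1r and Olfr genes, and the 19 also held histone, prolactin, kallikrein and cystatin clusters. Cystatin and Olfr clusters went both ways, with 1 of each higher in every DP list. The DP side also held 1 protocadherin and 1 killer cell lectin-like receptor cluster. The 14 Cyp2c genes on chr19:39007019-40187333, cytochrome P450 enzymes of drug and steroid metabolism, were covered to 1.1%, 3.11% and 1.56% in DP and 10.9%, 8.77% and 3.21% in Oct4. The Cyp2 genes from Cyp2s1 to Cyp2t4 on chr7:25802475-27158668, which span the Oct4-only region shown near Cyp2b23, had 2.34%, 3.02% and 2.82% in DP and 8.83%, 9.13% and 4.19% in Oct4. The C-type lectin genes from Clec4a1 to Clec4e on chr6:122921848-123289870, receptors of myeloid cells, had 3.15%, 4.67% and 2.47% in DP and 10.2%, 8.98% and 5.77% in Oct4. In all of these Oct4 replicate 3 was the lowest of its population. The 35 Vmn1r genes on chr13:22084440-23253906 had 0.562%, 2.99% and 1.29% in DP and 7.51%, 8.23% and 3.13% in Oct4. The 8 Olfr genes on chr16:19284104-19629916 had 1.93%, 0.633% and 0% in DP and 7.36%, 7.13% and 2.04% in Oct4, so Oct4 replicate 3 was close to DP replicate 1 there.

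**Figure D4:**
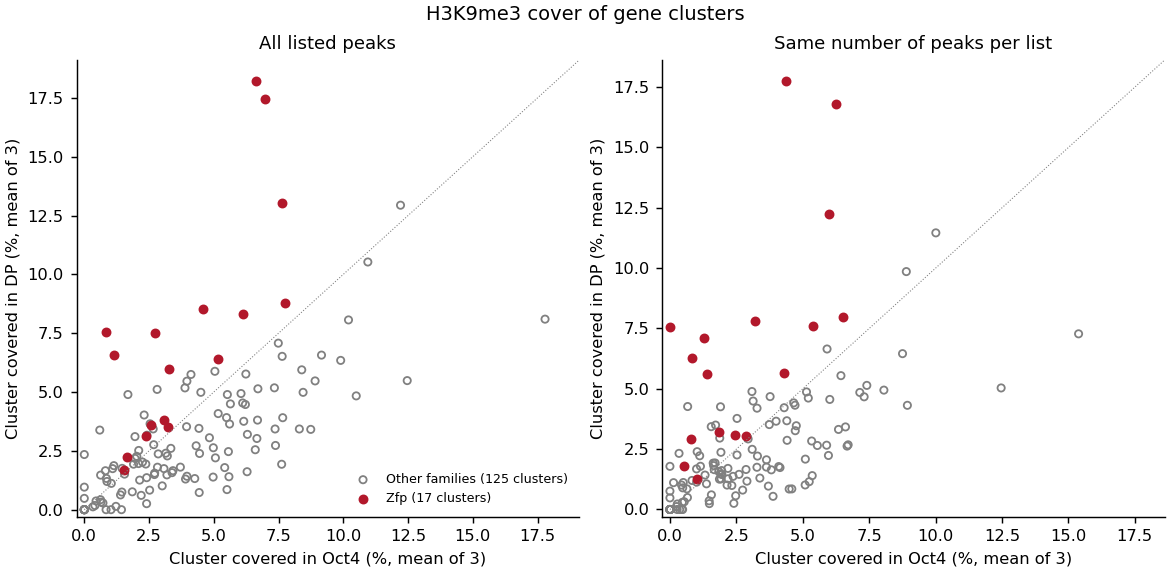
Mean share of each gene cluster under H3K9me3 peaks in Oct4 (horizontal axis, percent) and DP (vertical axis, percent), with all peaks and with equal numbers; each point is 1 of 142 clusters, filled for the 17 Zfp clusters and open for the other families, and the dotted line marks equal cover. All 17 Zfp clusters lie on the DP side of the line.

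Of 50 gene families, 2 had a higher share of marked genes in every DP list (4%) and 2 in every Oct4 list (4%). With equal numbers these were 4 (8%) and 5 (10%). The DP families were Zfp and the clustered protocadherins, adhesion proteins by which neurons tell themselves apart. Of 56 protocadherin genes, 44.6%, 51.8% and 51.8% were marked in DP and 41.1%, 19.6% and 19.6% in Oct4. This came from the gamma genes, of which 18 of 21 were marked in each DP list and 10, 0 and 0 in the Oct4 lists, or 0 in each with equal numbers. The gamma gene models overlap and held 11 merged regions in all, 6 of them DP-only. Of the 13 alpha genes, 7, 11 and 11 were marked in DP and 13, 11 and 11 in Oct4, and of the 22 beta genes 0 in any list.

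The Oct4 families were the Slc22 transporters and the cystatins, protease inhibitors with 1 of 17 genes marked in Oct4. Of the 25 Slc22 genes, 28%, 32% and 24% were marked in DP and 40%, 36% and 36% in Oct4. These Slc22 shares lay above the all-peak share of all protein-coding genes, given above, in every list. The cystatin share in Oct4, 5.88%, lay below it. With equal numbers the Slc22 shares were 24%, 20% and 24% in DP and 32%, 28% and 36% in Oct4. Type 2 vomeronasal receptors (Vmn2r, 120 genes) overlapped with all peaks, at 10.8%, 20.8% and 9.17% in DP and 30.8%, 28.3% and 14.2% in Oct4, and stood apart with equal numbers, at 10%, 10.8% and 9.17% in DP and 17.5%, 20.8% and 14.2% in Oct4. The UDP glucuronosyltransferase genes, which conjugate hormones and toxins, did not separate the populations, with 11, 12 and 12 of 22 genes marked in DP and 12 in each Oct4 list.

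Single genes marked in 1 population were ranked by the share of the gene under peaks. The 10 DP-only genes with the widest difference were Aldoart2, Prr30, Cdkn1c, D1Pas1, Zfp599, Zfp68, Ajm1, Zfp930, Olfr769 and Zfp30, each with no peak in any Oct4 list. Aldoart2, an aldolase gene copied through RNA and used in sperm, on chr12:55565239-55566896, was covered to 76%, 100% and 75.4% in the DP lists. D1Pas1, a helicase gene of similar retrotransposed origin on chr1:186967416-186970627, was covered to 38.1%, 67.9% and 77.2%. Prr30 on chr14:101197690-101200330 was covered to 78.6%, 76% and 85.1%. Aldoart2 and Prr30 were thus mostly under a peak in each DP list, and D1Pas1 in replicates 2 and 3.

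Among the zinc finger genes of this group, Zfp599 was covered to 37.3%, 71.1% and 70.4%, Zfp68 to 53.1%, 48.3% and 37.7%, and Zfp30 to 18.5%, 57.7% and 25.2%. Their windows shown above lie in the finger exons. Cdkn1c, the imprinted inhibitor of cyclin-dependent kinases on chr7:143458339-143461050, was covered to 48.8%, 86.9% and 67.9%. Ajm1, Zfp930 and Olfr769 had 31.9% to 60.2%.

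The 10 Oct4-only genes with the widest difference were Olfr514, Olfr506, Ifitm7, Rasl11a, Rtl6, Klrb1b, Creld2, Samd11, Ceacam2 and Olfr510. Olfr514 on chr7:108825065-108825997 was covered to 100%, 77.2% and 33.4% in the Oct4 lists, and Olfr506 on chr7:108610787-108615340 to 57.7%, 57.7% and 62.5%. Ifitm7, of the interferon-induced transmembrane family, on chr16:13981699-13986888, was covered to 53.7%, 22% and 51.0%. Rasl11a, a small GTPase gene on chr5:146845071-146847726, had 40.3%, 36.4% and 35.2%, and Rtl6, derived from a retrotransposon, on chr15:84553398-84557823, had 39.6%, 30.7% and 39.6%. The other 5 had 8.45% to 42.9%. None of the 10 was a zinc finger gene, and 3 were olfactory receptors, all on chromosome 7. Of all 1134 Olfr genes 11 were Oct4-only (0.970%), below the share of 1.41% over all genes.

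**Figure D5:**
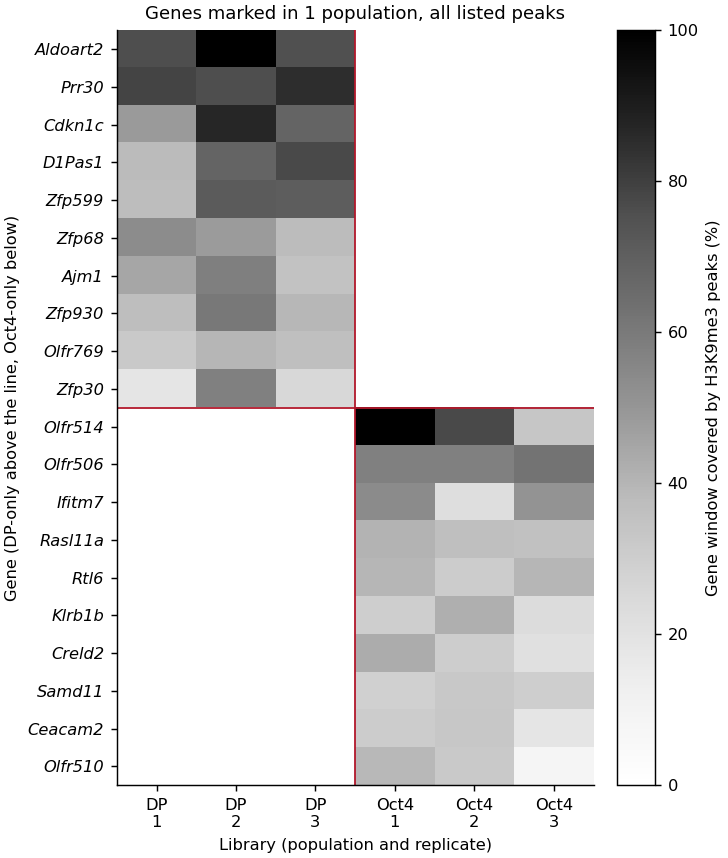
Share of the gene window under H3K9me3 peaks (grey scale, percent) for the 10 DP-only and 10 Oct4-only genes (rows) in the 6 lists (columns), all peaks. Each DP-only gene is covered in the 3 DP lists and at 0 in the Oct4 lists, and the reverse holds for the Oct4-only genes, since the pattern chose them.

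Imprinted genes were mostly alike in the populations. Of 74 annotated, 37, 43 and 37 were marked in DP and 40, 40 and 34 in Oct4, and 28 (37.8%) were constant, against 5.51% of protein-coding genes. Overlapping genes of this list share peaks, which widens that gap. In distinct regions, 20 of the 116 at imprinted genes were constant, against 1251 of 14356 at protein-coding genes. Peg13 was covered to 74.6%, 100% and 70.8% in DP and 92.5%, 100% and 93.8% in Oct4, Nnat to 49.6%, 100% and 100% and 89.1%, 46.7% and 87.4%, and H19 to 48.6%, 30.2% and 23.2% and 54.4%, 24.7% and 27.9%. Igf2, the growth factor gene beside H19, was constant but more covered in each DP list, at 15.5%, 22.4% and 8.91% against 3.57%, 3.14% and 1.91%. Of the distinct windows at the maxima of the constant imprinted genes, 40%, 33.3% and 36.8% held TGCCGC in DP and 42.1%, 36.8% and 45% in Oct4, against 1.79% of genome windows.

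With all peaks Cdkn1c and Mirg were DP-only, 2.70% of the imprinted genes against 0.881% of protein-coding genes, and with equal numbers also Rtl1 and Rasgrf1, 5.41% against 1.72%, while Calcr was Oct4-only with equal numbers. Mirg, a microRNA host on chr12:109729764-109749460, was covered to 14.9%, 31.0% and 19.6% in DP, and Rtl1, a retrotransposon-derived gene of the placenta in the same imprinted domain, to 39.8%, 23.4% and 41.3% with equal numbers. Meg3, the maternally expressed RNA of that domain, had 5.80%, 5.23% and 0% in DP and no peak in Oct4.

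Of the 10 gene lists, 0 had more marked members in every DP list (0%) and 1 in every Oct4 list (10%). With equal numbers these were 3 (30%) and 0 (0%). The list higher in Oct4 was endoderm, with 0, 0 and 0 of 25 genes in DP and 2, 1 and 2 in Oct4. Among them was Lama1, a basement membrane laminin, covered to 0.94%, 1.45% and 1.73% in Oct4. The endoderm shares of 8%, 4% and 8% in Oct4 were below those of all protein-coding genes there, 18.93%, 15.94% and 11.02%. With equal numbers endoderm had 0, 0 and 0 genes in DP and 0, 0 and 1 in Oct4. Lama1 then kept a peak in Oct4 replicate 3 alone. The lists higher in DP with equal numbers were imprinted genes (35, 36 and 37 against 34, 33 and 33), signalling genes of nEnd culture (10, 11 and 9 of 45 against 4, 6 and 5) and fibroblast markers (4, 3 and 4 of 20 against 2, 1 and 2). All protein-coding genes were also higher in each DP list in that setting, as given above. The imprinted genes were at 47.3%, 48.6% and 50% in DP and 45.9%, 44.6% and 44.6% in Oct4. In proportion to their shares they differed no more than all protein-coding genes. Il6st, the shared receptor subunit of LIF signalling, was DP-only with all peaks at 5.79%, 7.57% and 3.87%, and Fgfr4 with equal numbers at 4.22%, 13.9% and 17.4%. Tcf7l1, a repressor of the Wnt pathway, and the fibroblast genes Twist2 and Fn1 were also DP-only with equal numbers.

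The other lists overlapped. Of 36 germline genes, 8, 10 and 7 were marked in DP and 20, 16 and 9 in Oct4 with all peaks, and 7, 5 and 7 against 6, 9 and 7 with equal numbers. Brdt, a bromodomain protein of sperm, was Oct4-only with all peaks, and Hormad2, a meiotic chromosome axis protein, DP-only with equal numbers. Of 42 genes of the H3K9 methylation machinery, 3, 10 and 6 were marked in DP and 8, 7 and 7 in Oct4, with Zfp932 DP-only and Pphln1, a subunit of the HUSH silencing complex, Oct4-only in both settings. Of 25 pluripotency genes, 2, 2 and 1 were marked in DP and 3, 3 and 2 in Oct4, of 25 trophectoderm genes 2, 7 and 5 against 7, 5 and 5, and of 26 annotated genes of the 2-cell stage 6, 6 and 4 against 9, 7 and 3. With all peaks, germline genes (19.4% to 55.6%) and 2-cell genes (11.5% to 34.6%) lay above the share of all protein-coding genes in every list. Pluripotency genes (4% to 12%) lay below it in every list. Genes of the H3K9 methylation machinery and of the trophectoderm lay below it in DP replicate 1 and above it elsewhere. Of the 8 population markers, only Pecam1 was constant.

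The other marks were read at the same regions. H3K27ac peaks overlapped 3.77%, 1.16% and 3.26% of Oct4-only regions in DP and 15.7%, 18.6% and 6.83% in Oct4 (exact p = 0.1, adjusted p = 0.3). They also overlapped more constant regions in Oct4, at 4.88%, 1.18% and 3.90% in DP and 16.2%, 23.2% and 4.93% in Oct4, and more of all H3K9me3 regions, with means of 1.6% and 10.3%. The H3K27ac lists themselves held 10957, 3079 and 12244 peaks in DP and 38619, 65131 and 8574 in Oct4. With 3079 peaks per H3K27ac list and the 1960 Oct4-only regions of the equal-number H3K9me3 lists, the values were 1.63%, 1.22% and 0.918% in DP and 3.78%, 2.40% and 4.13% in Oct4. The difference was not particular to Oct4-only regions. In that setting the means were 0.699% in DP and 1.63% in Oct4 over all regions, and 1.59% and 3.67% over constant regions.

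H3K27me3, the Polycomb mark, overlapped 0.714%, 1.26% and 0.612% of Oct4-only regions in DP and 0.0340%, 0.136% and 0.544% in Oct4. Its lists held 3798, 8672 and 6418 peaks in DP and 1629, 2948 and 5785 in Oct4, and it overlapped 1.5% and 0.589% of all regions on average. At Oct4-only regions the values with equal numbers were 0.408%, 0.408% and 0.153% in DP and 0.0510%, 0.102% and 0.153% in Oct4, which meet at 0.153%. H3K4me1 values of the populations overlapped at all 3 classes of region with all peaks. With equal numbers they stood apart at Oct4-only regions, at 1.33%, 1.48% and 0.918% in DP and 1.99%, 1.58% and 1.53% in Oct4 (exact p = 0.1, adjusted p = 0.3). Across the 11 chromosomes apart in both settings, H3K27ac stood apart in the direction of H3K9me3 in 3 and in the opposite direction in 4 with all peaks, H3K4me1 in 1 and 2, and H3K27me3 in 2 and 2. The counts with equal numbers were 1 and 2 for H3K27ac, 0 and 4 for H3K4me1, and 4 and 1 for H3K27me3. On X none of the 3 marks stood apart with all peaks, and with equal numbers H3K27me3 did, with 1, 1 and 1 peaks in DP and 4, 2 and 3 in Oct4.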

How the data were processed

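CUT&Tag libraries for H3K9me3 from 3 DP and 3 Oct4 samples were used, as peak lists. Per the labels and the study's methods, the authors aligned paired-end reads to mm10 with Bowtie2, and called peaks per library against an IgG control with SEACR in stringent mode. The submitters' processing notes also name bcl2fastq 2.19.1, SAMtools 1.12, bedtools 2.26.0 and deepTools. The deposited values are signal, coverage summed over each peak and its maximum, not scaled to depth. Depth is unknown, so no counting error could be given.

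Members, gene lists, families and tests were chosen with earlier results of these data known. Gene models were GENCODE vM21 and sequence was RefSeq GRCm38, read with Python 3.11.15, numpy 2.4.6 and pandas 2.3.3. Peaks were used as listed and as the 12701 of highest total signal per list. A gene window was the body and 1 kb upstream, a promoter 1 kb upstream to 100 bases downstream, and motif windows were 300 bases. Densities, shares and cover were compared by 2-sided exact permutation tests over lists with Benjamini-Hochberg adjustment, and the scripts were tested on simulated lists. The named genes were the 10 widest differences in cover each way among genes with the pattern in both settings, without predicted genes, and list members with a pattern. The named clusters were the 5 widest each way, the named regions the highest ranked of each class outside chromosome 18. The linker, the CENP-B box, the start and end of Zfp genes and the imprinted windows were added after the values were seen. Replicates are separate samples by their labels, and p-values measure only the spread between them. Pdgfra lists and IgG data were not used here.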

Additional observations from a re-analysis of the deposited data

How the results depend on the processing

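Of 322 alternatives over 36 measures, 270 kept their direction and stayed within the limits set for a move, 45 moved and 7 reversed or came to 0. With 1 library left out, a call needs fewer lists to be alike. The counts below therefore tend to rise whichever library is dropped, and a rise is no result about that library. DP-only regions (968) were 1683 at a common total signal of at least 6596, and 1004 to 2076 with 1 library left out, over 1.5 times the count without DP replicate 1 or 3 or Oct4 replicate 1. Oct4-only regions (2943) were 1960 with equal numbers, 1858 with equal numbers by maximum signal, 1001 at the common signal, and 3278 to 6285 with 1 library left out, the highest without Oct4 replicate 3. Constant regions (4078) were 2603 at the common signal. DP-only genes (193) were 376, 382 and 423 in these 3 settings, 79 within 5 kb of the gene start, and 209 to 329 with 1 library left out, with the same 3 libraries giving 327 or more. Oct4-only genes (309) were 135 at the common signal, 158 within 5 kb, and 338 to 604 with 1 library left out, 525 without DP replicate 2 and 604 without Oct4 replicate 3. Constant genes (1208) were 770 and 282. Clusters higher in DP (10) were 22, 22 and 19, and 10 to 17 with 1 library left out, the highest without DP replicate 1, and those higher in Oct4 (19) were 34, 37 and 5, and 19 to 64, with 44 without DP replicate 2 and 64 without Oct4 replicate 3. At the common signal, where Oct4 replicate 3 kept 6334 peaks, the Oct4-only calls thus fell below the DP-only calls.

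Families higher in DP (2) were 4 with equal numbers and at the common signal and 2 to 4 with 1 library left out, 4 without Oct4 replicate 1, and those higher in Oct4 (2) were 5 and 1, and 2 to 12, with 12 without DP replicate 2 and 11 without Oct4 replicate 3. Lists higher in DP (0) were 3 with equal numbers and 0 to 1 with 1 library left out, 1 without Oct4 replicate 1, and those higher in Oct4 (1) were 0 with equal numbers, 0 within 20 kb of the start, and 1 to 4, with 3 without DP replicate 2 and 4 without Oct4 replicate 3. The DP minus Oct4 difference of H3K4me1 overlap (percentage points) at DP-only regions, 1.0, was 0 with equal numbers and -0.0458 to 2.0 with 1 library left out. At Oct4-only regions it was -0.838 and ranged from -1.42 to 0.574. At constant regions it was -0.0736, with 0 at equal numbers and -1.01 to 0.944. Beyond the looser rule with fewer lists, the cause of these moves was not tested.

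Chromosome X, the location and sequence measures and the shares of Zfp, protocadherin and Vmn2r genes kept their direction under every alternative run. Same-numbered samples did not deviate together (r = -0.0293, -0.0354 and 0.0739 over regions). The labels do not say whether they came from the same culture, and these values cannot settle it. With the replicate block, where all 3 same-numbered differences have the same sign, 12 clusters were higher in DP and 50 in Oct4, and 6 and 10 chromosomes. A sign-flip test of 3 pairs cannot go below p = 0.25 (exact). Depth limits every absence, since a peak below a list's lowest signal is not listed.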
